A study of Mus musculus with 24 samples.

Results

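Wnt ligands, their receptors and their secreted antagonists were followed in mouse embryonic fibroblasts (MEFs) with 24 Illumina Mouse-6 arrays, on which labelled RNA binds to matching probes carried by beads. The members were all genes whose symbols belong to the Wnt, Fzd, Sfrp or Dkk families, together with Ror1, Ror2, Lrp5, Lrp6, Lgr4, Lgr5, Lgr6 and Wif1. This gave 46 of the 19057 genes that had a probe of their own. They were 19 Wnt ligands, 10 Frizzled receptors, 4 co-receptors, 3 R-spondin receptors, 9 secreted antagonists and Fzd10os, an opposite-strand RNA that the symbol rule also caught. The brightest probe of each gene, by its mean log2 signal on the 24 arrays, stood for the gene. The cells came from wild-type mice (WT) or were Siah1a/Siah2 KO MEFs (KO), in which the genes of the ubiquitin ligases Siah1a and Siah2 were knocked out. Both kinds of cells were studied at rest (untreated), after 12 h in low oxygen, which the study's text gives as 1% O2 (OD), without glucose (GD) or in low oxygen without glucose (OGD), and after 6 h with thapsigargin (TG), a blocker of the calcium pump of the endoplasmic reticulum (ER), or tunicamycin (TM), which blocks N-linked glycosylation there. Each of these 12 groups held 2 arrays, numbered replicate 1 and replicate 2, so precision is limited by the number of arrays. Nothing states whether replicates came from separate embryos or cultures, so the p-values measure only the spread between arrays, which may be technical.

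Wnt proteins are lipid-modified ligands that act at short range. They bind Frizzled receptors, which pass the signal on with Lrp5 and Lrp6 to beta-catenin and the TCF/LEF transcription factors, or with Ror2 and related co-receptors to a beta-catenin-independent branch that shapes cell polarity and movement. Lgr4, Lgr5 and Lgr6 bind R-spondins, which keep Frizzled receptors at the cell surface. The Sfrp proteins and Wif1 bind Wnt ligands outside the cell, and Dkk1, Dkk2 and Dkk4 block Lrp5 and Lrp6. In fibroblasts of the embryo these genes are known for marking position and for signalling to neighbouring epithelium.

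The background of unexpressed probes centred on a signal of 181, and a probe was called above background when its signal exceeded 232 (7.86 on the log2 scale). By this level 30 of the 46 members were measured in at least 1 array, and these are the members tested below. They were 10 of the 19 ligands, 9 of the 10 Frizzled receptors, 3 of the 4 co-receptors, 2 of the 3 R-spondin receptors and 6 of the 9 antagonists. Dkk3, Fzd2, Fzd5, Fzd7, Wnt10a and Wnt5a were above it in all 24 arrays. The 16 members never above it were Dkk1, Dkk2, Fzd9, Fzd10os, Lgr4, Ror1, Sfrp4, Wnt1, Wnt2, Wnt2b, Wnt3, Wnt8a, Wnt8b, Wnt9b, Wnt10b and Wnt11. For these the arrays give only an upper bound on the signal, except that a dimmer probe of Wnt8a passed the level on 1 array. In bulk RNA, fewer cells of a type and less RNA per cell cannot be told apart.

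Some properties of the arrays touch the results. Across probes, the r between the 2 arrays of a group ranged from 0.955 to 0.994, and the 2 arrays were 2-fold or more apart for 0.0450% (WT, TG) to 8.51% (WT, OGD) of kept probes. Siah1a read 10.17 to 10.84 in the WT arrays and 7.48 to 8.24 in the KO arrays, and Siah2 8.98 to 10.98 and 7.90 to 9.49. Whether these probes lie in the deleted part of each gene is not known. Xist, the RNA of the inactive X chromosome, read 10.56 to 11.77 in WT and 7.37 to 8.35 in KO arrays, and the Y-linked gene Eif2s3y 7.32 to 7.67 and 11.19 to 12.15. The WT and KO cells therefore also differed in sex-linked transcripts. By these 2 genes the WT arrays read as female and the KO arrays as male. Genotype cannot be told apart from sex or from any other difference between the cell populations. Of 10 fibroblast markers, 7 were above background in all 24 arrays, with summed signals of 49231 to 81373 in WT and 72970 to 139960 in KO arrays. None of the 8 epithelial, 5 endothelial, 5 blood or 4 muscle markers was above it in all arrays. The epithelial markers summed to 1568 to 8395 in WT and 1537 to 2020 in KO arrays, and Epcam, Krt5 and Cldn3 were never above background. Of 6 neural markers 2, Nes and Map2, were above it in all arrays, with sums of 4113 to 7397 in WT and 3183 to 6450 in KO arrays. Of 8 skeletal and fat markers 1, Sox9, was, with sums of 4449 to 20795 in WT and 8721 to 25400 in KO arrays. Also never above background were Pecam1 and Emcn (endothelial), Lyz2 and Adgre1 (blood), Myod1 and Actc1 (muscle) and Tubb3 and Gfap (neural). The same held for Acan, Adipoq and Fabp4 (skeletal and fat). All other listed markers on the arrays, epithelial ones included, were above background in at least 1 array. The part of these cell types in the results was not tested. The array names in the study's heat map place the untreated and GD arrays and the WT OD and OGD arrays on 1 set of chips, and all TG and TM arrays with those of KO cells in OD and OGD on another. The labels do not give this layout. Chip set and group cannot be told apart when genotypes are compared in OD or OGD, or when TG or TM is compared with untreated cells. The same holds when OD or OGD is compared with untreated cells in KO, and when KO and WT responses to OD or OGD are compared.

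The first comparison set KO against WT cells in each condition. The question was which of these genes depended on genotype at rest and under stress. All 24 arrays were fitted together with limma, and calls needed a change of at least 2-fold and an adjusted p (Benjamini-Hochberg, over every kept probe) under 0.05. KO cells carried more transcript of the ligands Wnt5a, Wnt6 and Wnt7b, of the receptors Fzd1 and Fzd6 and of the co-receptor Ror2 in 5 or 6 of the 6 conditions. Over all conditions 11 of the 30 measured members were called at least once, 9 of them higher and 2 lower in KO cells. The share of all genes called at least once was not counted. Of the 36 calls, 34 were higher and 2 lower in KO. Over all genes and the 6 conditions, 2.71% of tests were called higher and 1.74% lower. Wnt6, Wnt7b and Lgr5 were above background in 0 of 12 WT arrays and made 5, 5 and 1 of the higher calls. They were kept through KO arrays alone, so these calls could only be higher. With normexp background correction 40 calls were higher and 8 lower, and Fzd3 and Lgr6 made all 8 lower calls. It also called Wnt6 (1.37) and Wnt7a (1.19) under OGD and Fzd1 under GD (1.3), which passed the adjusted p short of 2-fold without it. Ror2 under TG was no longer called with it (1.88, adjusted p = 0.103). In untreated cells 6 members were called higher and 0 lower, where 2.29% and 1.46% of the 13406 measured genes were called. OD gave 6 higher and 0 lower (2.2% and 1.66% of all genes), GD 4 and 0 (2.09% and 1.5%), OGD 7 and 1 (3.01% and 1.98%), TG 6 and 0 (3.12% and 1.81%) and TM 5 and 1 (3.57% and 2.04%). The median log2 fold change of the 30 members lay between 0.11 and 0.25 in the 6 conditions, and that of all genes between -0.01 and 0.02. Members below background in both groups of a comparison, 4 to 9 of the 30, are in these counts.

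**Figure D1:**
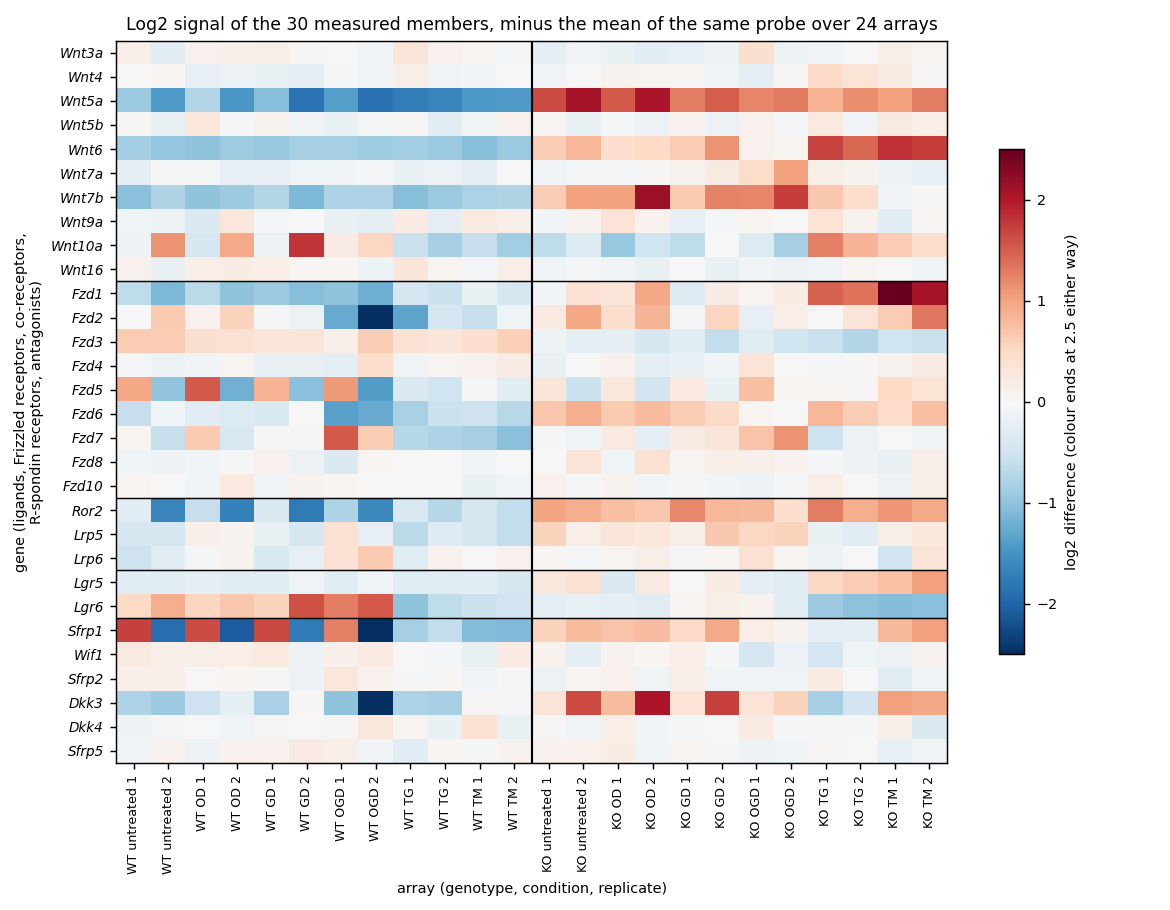
Log2 signal of each of the 30 measured members (rows, grouped by role) in each of the 24 arrays (columns), minus the mean of the same probe over all arrays; red is above and blue below that mean. Wnt5a, Wnt6 and Ror2 are red in all KO and blue in all WT arrays. Sfrp1 and Fzd5 switch between WT replicate 1 and replicate 2 in the untreated, OD, GD and OGD groups.

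Wnt5a, the ligand best known for beta-catenin-independent signalling and for limb and gut outgrowth, had the largest change among the members in untreated cells and was called in every condition. Its log2 signal was 8.87 and 8.39 in the untreated WT pair, 9.07 and 8.35 with OD, 8.75 and 7.96 with GD, 8.44 and 7.94 with OGD, 8.07 and 8.15 with TG and 8.38 and 8.40 with TM. It was 11.44 and 11.88 in the untreated KO pair, 11.35 and 11.85 with OD, 11.09 and 11.32 with GD, 11.02 and 11.10 with OGD, 10.68 and 10.96 with TG and 10.81 and 11.09 with TM. Every KO array lay above every WT array. The log2 fold changes (KO over WT, standard error 0.29 in each comparison, n = 2 arrays per group) were 3.03 at rest, 2.89 in OD, 2.85 in GD, 2.88 in OGD, 2.71 with TG and 2.56 with TM. That was an 8.15-fold difference in untreated cells (adjusted p = 5.8e-06) and 5.9-fold under TM (adjusted p = 2.41e-05). A dimmer probe of Wnt5a was also called in all 6 conditions, with 1.34 to 2.36, and another, near background, in none, with -0.04 to 0.35.

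Wnt6, a ligand of epithelium and early mesoderm, was above background on KO arrays only. The WT arrays read 7.63 and 7.51 in the untreated WT pair, 7.48 and 7.60 with OD, 7.53 and 7.64 with GD, 7.65 and 7.60 with OGD, 7.64 and 7.54 with TG and 7.42 and 7.55 with TM, all below background. The KO arrays read 9.09 and 9.30 in the untreated KO pair, 8.89 and 8.99 with OD, 9.12 and 9.61 with GD, 8.59 and 8.53 with OGD, 10.18 and 9.92 with TG and 10.30 and 10.21 with TM, all above it. Because WT was below background, the change is a lower bound, computed against the background level. Wnt6 was at least 2.53-fold higher in untreated KO cells (adjusted p = 3.65e-06), 2.11-fold under OD, 2.84-fold under GD, 4.55-fold under TG and 5.25-fold under TM (adjusted p = 7.54e-09). The fitted log2 changes were 1.63 at rest, 1.40 in OD, 1.78 in GD, 0.94 in OGD, 2.46 with TG and 2.77 with TM (SE 0.15). The value under OGD passed the adjusted p (0.000791) but not the 2-fold limit. A second probe was called in all 6 conditions (1.07 to 2.79), and another in none (0.19 to 0.65).

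Wnt7b, a ligand of lung, kidney and bone development, was likewise below background in every WT array. The WT values were 7.36 and 7.66 in the untreated WT pair, 7.41 and 7.5 with OD, 7.67 and 7.30 with GD, 7.64 and 7.64 with OGD, 7.34 and 7.49 with TG and 7.62 and 7.66 with TM. The KO values were 9.03 and 9.42 in the untreated KO pair, 9.42 and 10.55 with OD, 9.06 and 9.65 with GD, 9.63 and 10.14 with OGD, 9.09 and 8.85 with TG and 8.32 and 8.45 with TM. By group mean the KO level was highest under OD and OGD and lowest under TM. The change was at least 2.58-fold in untreated cells (adjusted p = 0.00182), 4.36-fold in OD, 2.82-fold in GD, 4.07-fold in OGD and 2.16-fold under TG. Under TM the fitted log2 difference of 0.75 was not called (SE 0.29, adjusted p = 0.154). The other kept probe of Wnt7b was dimmer and called in no condition (0.36 to 0.81). With both probes averaged, the call under TG ended at a log2 change of 0.97.

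**Figure D2:**
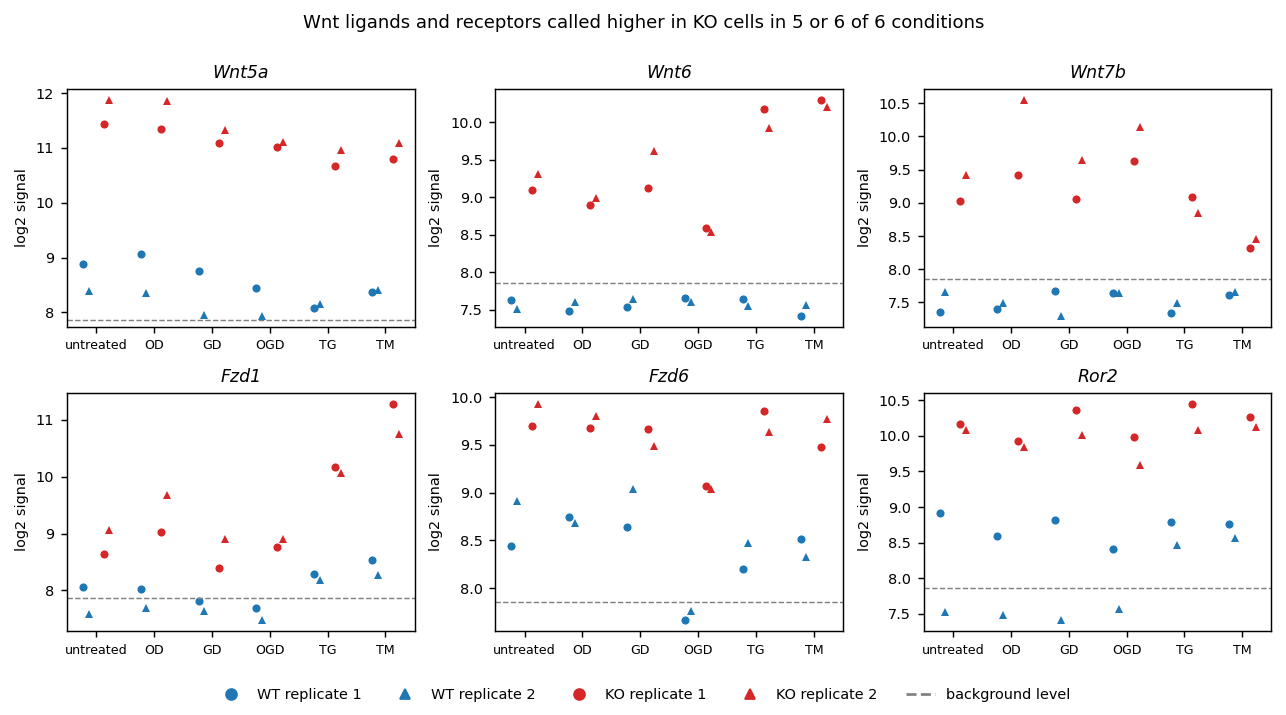
Log2 signal (vertical axis) of 6 genes in each array by condition (horizontal axis); circles are replicate 1, triangles replicate 2, blue WT and red KO, and the dashed line is the background level of 7.86. All KO points lie above the WT points of the same condition, and the WT points of Wnt6 and Wnt7b all lie under the line.

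Wnt10a, a ligand of skin and tooth development, was not called. By group mean KO was below WT in untreated, OD, GD and OGD cells and above it with TG and TM. It read 9.10 and 10.36 in the untreated WT pair, 8.78 and 10.19 with OD, 9.10 and 11.03 with GD, 9.44 and 9.74 with OGD, 8.68 and 8.40 with TG and 8.65 and 8.36 with TM. In KO cells it read 8.60 and 8.91 in the untreated KO pair, 8.28 and 8.74 with OD, 8.59 and 9.21 with GD, 8.89 and 8.39 with OGD, 10.49 and 10.07 with TG and 9.86 and 9.68 with TM. KO arrays were lower than WT arrays at rest, in OD and in OGD and higher with TG and TM. In GD KO replicate 2 lay above WT replicate 1, while KO minus WT was -0.50 within replicate 1 and -1.82 within replicate 2. The log2 difference was -0.98 in untreated cells (SE 0.54, adjusted p = 0.479) and 1.74 under TG (adjusted p = 0.0634). With the replicate number fitted as a block (here called the replicate block) the TG difference was called (adjusted p = 0.0231). The differences under TM (1.26, adjusted p = 0.201) and GD (-1.16, adjusted p = 0.344) did not pass, but with the block set within each set of chips both were called (adjusted p = 0.0118 and 0.0288), as was TG (0.00127). With only the arrays of the groups compared in the fit, TG and TM were called (adjusted p = 0.000348 and 0.001). Wnt6 and Wnt10a are adjacent protein-coding genes on chromosome 1 in the mouse RefSeq annotation (GRCm38.p6).

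The other measured ligands, Wnt3a, Wnt4, Wnt5b, Wnt7a, Wnt9a and Wnt16, were above background in 2 to 4 of the 24 arrays each and were never called. Of these, Wnt7a passed the adjusted p in KO against WT without reaching 2-fold. It read 8.04 and 8.59 in KO cells under OGD and 7.34 to 7.82 in the other 22 arrays (KO over WT under OGD 0.78, SE 0.15, adjusted p = 0.00408). These 2 arrays were the only ones above background for this ligand.

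Among the Frizzled receptors, Fzd1 and Fzd6 were called higher in KO cells in 5 of 6 conditions each. Fzd1 read 8.06 and 7.59 in the untreated WT pair, 8.03 and 7.69 with OD, 7.80 and 7.64 with GD, 7.69 and 7.48 with OGD, 8.29 and 8.17 with TG and 8.54 and 8.27 with TM. It read 8.63 and 9.07 in the untreated KO pair, 9.02 and 9.68 with OD, 8.39 and 8.90 with GD, 8.77 and 8.90 with OGD, 10.17 and 10.06 with TG and 11.28 and 10.76 with TM. KO arrays were above the WT arrays of the same condition throughout, and both genotypes were highest under TM. The log2 fold changes were 1.02 at rest, 1.49 in OD, 0.92 in GD, 1.25 in OGD, 1.88 with TG and 2.61 with TM (SE 0.25). All passed except GD, where both WT arrays were below background and the fitted value fell short of 2-fold at an adjusted p of 0.047. The largest was 6.11-fold under TM (adjusted p = 4.16e-06). Under OGD both WT arrays were below background, so that change is at least 1.96-fold. The call in untreated cells (adjusted p = 0.0248) ended without WT replicate 2 (log2 0.79, adjusted p = 0.282) and without KO replicate 2 (0.81, adjusted p = 0.253).

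Fzd6, a receptor of the planar polarity branch that orients hair follicles, read 8.45 and 8.91 in the untreated WT pair, 8.75 and 8.68 with OD, 8.64 and 9.04 with GD, 7.67 and 7.76 with OGD, 8.20 and 8.48 with TG and 8.51 and 8.33 with TM. In KO cells it read 9.70 and 9.93 in the untreated KO pair, 9.67 and 9.81 with OD, 9.66 and 9.49 with GD, 9.07 and 9.04 with OGD, 9.85 and 9.64 with TG and 9.48 and 9.77 with TM. The lowest KO array and the highest WT array were both at 9.04 after rounding, without overlap. OGD gave the lowest values in both genotypes, with both WT arrays below background. The log2 fold changes were 1.13 at rest, 1.02 in OD, 0.74 in GD, 1.34 in OGD, 1.41 with TG and 1.2 with TM (SE 0.18). All but GD were called, with adjusted p from 8.5e-05 (TG) to 0.00188 (OD), and the OGD change is at least 2.29-fold. A second probe gave 0.80 to 1.62. Values near 2-fold were sensitive to single arrays: the untreated change was 0.90 without WT replicate 1, and that under OD 0.99 without WT replicate 2 and 0.96 without KO replicate 2, and these fell short of 2-fold only.

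Fzd2, a receptor for Wnt5a and other ligands, was called between genotypes under OGD only. It read 10.72 and 11.37 in the untreated WT pair, 10.82 and 11.30 with OD, 10.67 and 10.56 with GD, 9.46 and 8.05 with OGD, 9.39 and 10.27 with TG and 10.14 and 10.61 with TM. It read 10.95 and 11.69 in the untreated KO pair, 11.16 and 11.57 with OD, 10.69 and 11.25 with GD, 10.51 and 10.89 with OGD, 10.74 and 11.04 with TG and 11.36 and 12.03 with TM. Its lowest arrays were the WT ones under OGD. There KO was higher by 1.95 on the log2 scale (SE 0.42, adjusted p = 0.00902). This call ended without WT OGD replicate 2 (1.24, adjusted p = 0.129) and without KO OGD replicate 2 (1.76, adjusted p = 0.0602). Under TM the difference of 1.32 did not pass (adjusted p = 0.0739) but was called with the replicate block (adjusted p = 0.024).

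Fzd3, a planar polarity receptor that guides axons, was the only Frizzled receptor called lower in KO cells. It ranged from 8.60 to 9.12 in the 12 WT arrays and from 7.74 to 8.34 in the 12 KO arrays, without overlap. The log2 fold changes were -0.81 at rest, -0.73 in OD, -0.76 in GD, -0.77 in OGD, -0.98 with TG and -1.03 with TM (SE 0.15). All 6 passed the adjusted p, from 0.000394 (TM) to 0.00911 (OD), and only TM reached 2-fold. Under normexp background correction Fzd3 was called in 5 of 6 conditions (-1.02 at rest, -1.01 in GD and in OGD, -1.35 with TG and -1.37 with TM). Without WT TM replicate 2 the TM value was -0.95, and with all kept probes averaged it was -0.80. Fzd4, Fzd5, Fzd7, Fzd8 and Fzd10 were not called in any comparison of genotypes. Fzd5 and Fzd7 were above background in all arrays, at 9.60 to 12.52 and 10.67 to 13.25.

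Ror2, a receptor tyrosine kinase that binds Wnt5a and is needed for limb skeleton growth, was called higher in KO cells in 5 of 6 conditions. In WT cells it read 8.91 and 7.52 in the untreated WT pair, 8.60 and 7.49 with OD, 8.81 and 7.41 with GD, 8.41 and 7.57 with OGD, 8.79 and 8.47 with TG and 8.76 and 8.56 with TM. In KO cells it read 10.17 and 10.08 in the untreated KO pair, 9.93 and 9.84 with OD, 10.37 and 10.01 with GD, 9.98 and 9.59 with OGD, 10.45 and 10.09 with TG and 10.26 and 10.13 with TM. The 12 KO arrays lay above the 12 WT arrays, and in WT cells of the untreated, OD, GD and OGD groups replicate 2 was below background while replicate 1 was not. The log2 fold changes were 1.91 at rest, 1.84 in OD, 2.07 in GD, 1.80 in OGD, 1.64 with TG and 1.53 with TM (SE 0.46), with adjusted p from 0.0149 (GD) to 0.0423 (TG) among the calls. Under TM the adjusted p was 0.0557, which became 0.00258 once the replicate number was a block. The TG call ended with normexp background correction (1.88, adjusted p = 0.103) and with no filter on dim probes (1.64, adjusted p = 0.0641). Within replicate 1 KO exceeded WT by 1.26 to 1.66 and within replicate 2 by 1.57 to 2.59. In the fit of 12 group means the calls leaned on single arrays. In untreated cells they ended without KO replicate 1 (1.86, adjusted p = 0.148), WT replicate 2 (1.21, 0.356) or KO replicate 2 (1.95, 0.119). Under OD they ended without KO replicate 1 (1.80, 0.157), WT replicate 2 (1.29, 0.317) or KO replicate 2 (1.89, 0.110). Under GD the same 3 arrays gave 1.89 (0.133), 1.37 (0.238) and 2.25 (0.0590), and under OGD 1.60 (0.182), 1.38 (0.2) and 1.99 (0.0519). Under TG it ended without any 1 of the 4 arrays (1.46 to 1.82, adjusted p 0.104 to 0.264).

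The other co-receptors moved less. Lrp5, which with Lrp6 carries the beta-catenin signal, was above background in 12 of 12 KO and 6 of 12 WT arrays. It passed the adjusted p but not 2-fold in untreated cells (0.78, SE 0.20, adjusted p = 0.0353) and under TM (0.72, adjusted p = 0.0387). In both comparisons the WT arrays were all below background, and with normexp background correction both were called (1.1 and 1.05). Both other kept probes of Lrp5 stayed within -0.30 to 0.13. Lrp6 was above background in 11 of 12 KO and 10 of 12 WT arrays and did not pass in any comparison of genotypes.

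The 2 measured R-spondin receptors had 1 call each in KO against WT, Lgr5 higher under TM and Lgr6 lower under OGD. Lgr5 was kept through KO arrays alone, so its call could only be higher. Lgr5, a marker of stem cells in gut and hair follicle, read 7.44 and 7.42 in the untreated WT pair, 7.47 and 7.43 with OD, 7.42 and 7.58 with GD, 7.41 and 7.59 with OGD, 7.39 and 7.43 with TG and 7.43 and 7.27 with TM, all below background. It read 7.98 and 8.08 in the untreated KO pair, 7.34 and 7.93 with OD, 7.70 and 7.87 with GD, 7.45 and 7.42 with OGD, 8.22 and 8.34 with TG and 8.43 and 8.72 with TM. Only the KO arrays under TG and TM and in untreated cells were above background as pairs. It was called under TM, where KO was at least 1.64-fold higher (adjusted p = 0.000127). In untreated cells (0.60, adjusted p = 0.0437) and under TG (0.87, adjusted p = 0.00264) it passed the adjusted p short of 2-fold, and normexp background correction called both. Lgr6, its relative in skin, was called lower in KO cells under OGD (log2 fold change -1.51, SE 0.25, adjusted p = 0.00102). There it read 9.85 and 10.10 in WT and 8.65 and 8.28 in KO cells. In untreated cells and under GD it passed the adjusted p short of 2-fold (-0.90 and -0.98). With normexp background correction both were called (-1.11 and -1.14). A second Lgr6 probe also gave its lowest value under OGD (-1.69), and the third kept probe, near background, was called in no condition (-0.25 to 0.05).

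Dkk3, a secreted relative of the Dkk inhibitors that does not block Lrp6 as Dkk1 does, was the antagonist with a call. It read 10.88 and 10.75 in the untreated WT pair, 11.15 and 11.44 with OD, 10.86 and 11.70 with GD, 10.65 and 9.07 with OGD, 10.88 and 10.84 with TG and 11.70 and 11.63 with TM. In KO cells it read 11.98 and 13.30 in the untreated KO pair, 12.46 and 13.70 with OD, 12.01 and 13.37 with GD, 12.01 and 12.25 with OGD, 10.84 and 11.18 with TG and 12.69 and 12.63 with TM. KO arrays were above the WT arrays in every condition but TG, where they overlapped. The log2 fold changes were 1.82 at rest, 1.78 in OD, 1.41 in GD, 2.27 in OGD, 0.15 with TG and 1.00 with TM (SE 0.54), and OGD was called (adjusted p = 0.0149). That call ended without KO replicate 1 (2.39, adjusted p = 0.0673), WT replicate 2 (1.48, 0.181) or KO replicate 2 (2.15, 0.0706). With the replicate block, untreated cells (adjusted p = 0.0307, 0.0695 without it) and OD (0.0324, 0.0735 without it) were called too. A second Dkk3 probe gave 0.40 to 2.21 and was called in untreated cells (1.83, SE 0.50, adjusted p = 0.0464) and under OGD (adjusted p = 0.0109). With both probes averaged, untreated cells were called as well (1.83, adjusted p = 0.0428).

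**Figure D3:**
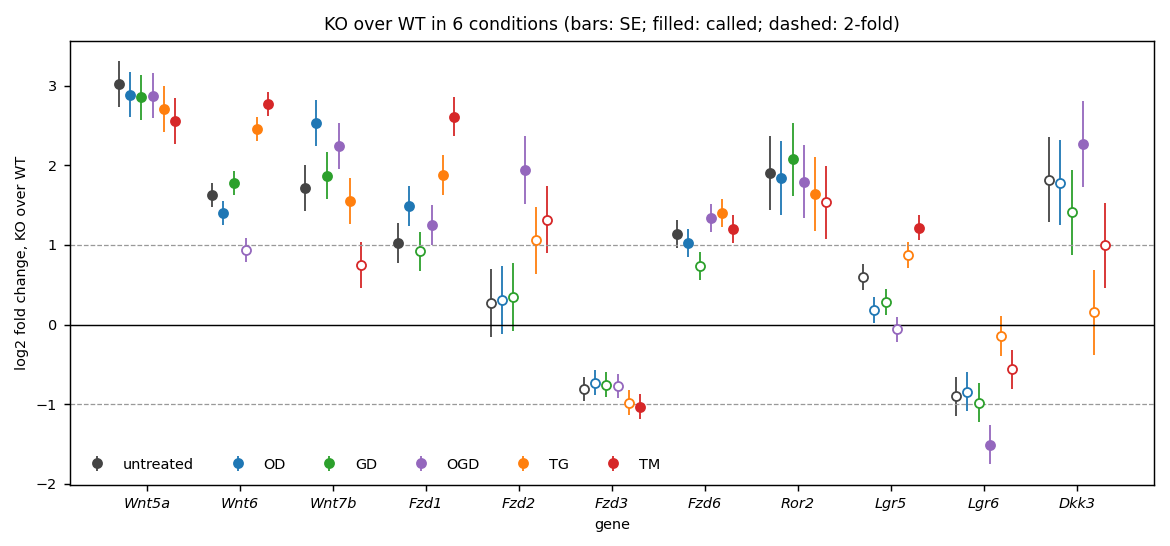
Log2 fold change of KO over WT (vertical axis) for the 11 members called in at least 1 condition; points are the 6 conditions by colour, bars are standard errors, filled points passed and dashed lines mark 2-fold. Wnt5a stays between 2.56 and 3.03, Wnt6 and Fzd1 are highest under TM, and Fzd3 and Lgr6 lie below 0.

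Sfrp1, a secreted Wnt binder, stood apart in how far its duplicates differed in WT cells. It read 12.02 and 8.41 in the untreated WT pair, 11.94 and 8.23 with OD, 11.95 and 8.54 with GD, 11.57 and 7.60 with OGD, 9.48 and 9.70 with TG and 9.23 and 9.21 with TM. In KO cells it read 10.89 and 11.09 in the untreated KO pair, 11.02 and 11.08 with OD, 10.78 and 11.26 with GD, 10.48 and 10.40 with OGD, 10.07 and 10.06 with TG and 11.12 and 11.33 with TM. In the untreated, OD, GD and OGD groups WT replicate 1 was above both KO arrays and WT replicate 2 below both, while the WT duplicates under TG and TM were within 0.22 of each other. KO minus WT was therefore -1.17 to -0.92 within replicate 1 and 2.69 to 2.85 within replicate 2 in those 4 conditions, and had no sign that both replicates shared. Under TM it was 1.88 and 2.12. None of the 6 comparisons passed (under TM 2.00, SE 1.33, adjusted p = 0.491). With only the arrays of the 2 groups compared in the fit, TM was called (SE 0.14, adjusted p = 4.78e-05). With a replicate block for each genotype and experiment, an alternative chosen after seeing the data, TM was called too (adjusted p = 2.44e-07). Here experiment means the TG and TM groups or all other groups, a split that the labels do not give. The second Sfrp1 probe gave 0.14 to 1.84.

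The gap was not confined to Sfrp1. In all 4 of these WT groups replicates 1 and 2 lay at least 2-fold apart in the same direction for 149 of 13406 genes (1.11%), Sfrp1 with the largest mean gap and Fzd5, a receptor of gut and eye, also among them. For Fzd5, replicate 1 exceeded replicate 2 by 1.92 to 2.74. In the KO groups of the same conditions 72 genes (0.537%) and 0 members were apart in this way. Of the members, Ror2 was higher in WT replicate 1 by 0.84 to 1.40 and Wnt10a differed by -1.93 to -0.30, and in KO cells Dkk3 differed by -1.36 to -0.24. In the WT TG and TM groups 1 gene was apart, and in those of KO 12. The part of these gaps in the changes between TG or TM and untreated cells was not tested.

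**Figure D4:**
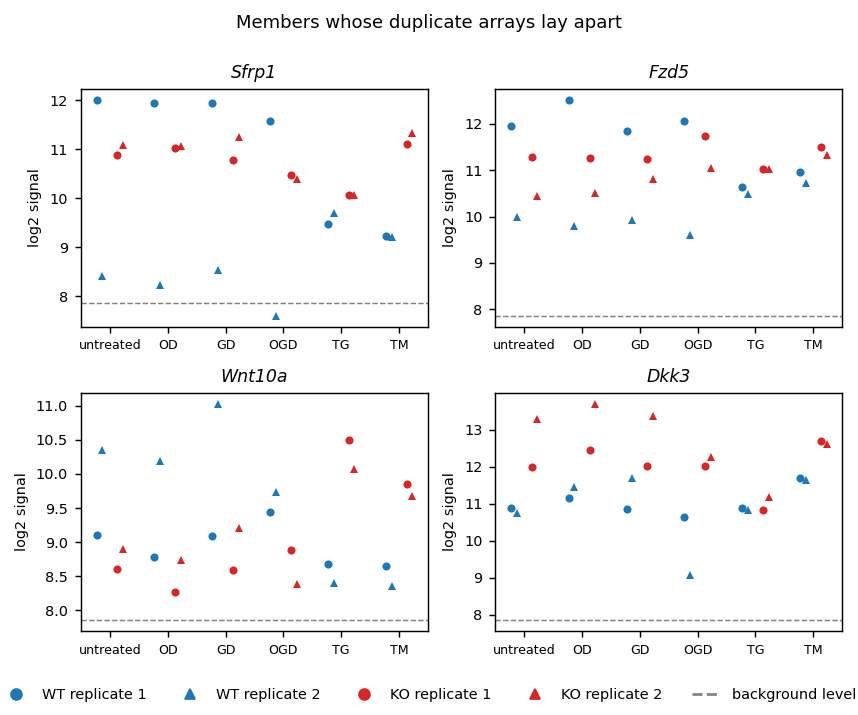
Log2 signal (vertical axis) of Sfrp1, Fzd5, Wnt10a and Dkk3 in each array by condition (horizontal axis), with circles for replicate 1, triangles for replicate 2, blue for WT and red for KO; the dashed line is the background level. The WT circle and triangle of Sfrp1 are 3.41 to 3.98 apart in the first 4 conditions and within 0.22 under TG and TM.

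Wif1, Sfrp2, Sfrp5 and Dkk4, the remaining measured antagonists, stayed near background, at 7.17 to 8.18 over the 24 arrays, and were not called in any comparison. Among the 30 measured members, 18 were called in none of the 21 comparisons. This share was not counted over all genes.

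Upstream sequences were set side by side for those of the 6 repeatedly higher genes that the RefSeq table of promoters held, namely Wnt6, Ror2 and Fzd1, since these genes were called higher in the same KO cells. The 250 bases before each start site are printed 5′ to 3′ on the strand of the gene, from GRCm38.p6 (Wnt6 chr1:74771642-74771891, plus strand; Ror2 chr13:53286125-53286374, minus strand; Fzd1 chr5:4758217-4758466, minus strand). Capitals mark GC boxes, the letters GGGCGG on either strand.
Wnt6: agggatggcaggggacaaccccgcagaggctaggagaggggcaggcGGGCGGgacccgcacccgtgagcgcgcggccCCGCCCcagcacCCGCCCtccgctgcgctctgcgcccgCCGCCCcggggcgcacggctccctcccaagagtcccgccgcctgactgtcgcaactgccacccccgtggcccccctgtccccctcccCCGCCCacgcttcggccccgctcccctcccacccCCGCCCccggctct
Ror2: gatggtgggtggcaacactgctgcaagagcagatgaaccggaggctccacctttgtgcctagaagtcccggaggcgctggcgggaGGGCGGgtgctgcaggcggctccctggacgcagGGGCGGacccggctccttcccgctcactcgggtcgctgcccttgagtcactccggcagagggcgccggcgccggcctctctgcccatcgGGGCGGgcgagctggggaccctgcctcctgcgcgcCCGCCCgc
Fzd1: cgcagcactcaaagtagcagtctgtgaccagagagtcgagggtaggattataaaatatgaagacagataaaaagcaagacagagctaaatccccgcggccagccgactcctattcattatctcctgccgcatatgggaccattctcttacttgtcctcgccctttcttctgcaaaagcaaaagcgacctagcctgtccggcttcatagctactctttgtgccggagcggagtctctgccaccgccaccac
Wnt6 held 6 GC boxes, Ror2 4 and Fzd1 0, and 32.7% of all 32851 windows of this length held at least 1. Their GC contents were 79.6%, 73.2% and 51.2%, with a median of 52.4% over all windows. The core letters of a hypoxia response element (ACGTG or GCGTG, either strand) occurred 1 time in Wnt6 and 0 times in Ror2 and Fzd1, with 38.6% of all windows holding 1 or more. None of the 3 held a TCF/LEF core (CTTTG followed by 2 letters that are each A or T, on either strand, in 14.8% of all windows), the ATF4 composite letters TGATGNAA (3.45%) or the ER stress element (0.113%). None of the 5 motifs occurred in all 3 windows.

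The next comparisons set each stress against untreated cells of the same genotype. The share of all genes called is given beside each count of members, and no difference between them was tested. In WT cells Fzd7 was higher and Fzd2 lower under OGD than untreated, and Lgr6 was lower under both ER stress drugs. For TG and TM, here and in KO cells, drug and chip set cannot be told apart. The same holds for OD and OGD in KO cells. OGD called 1 member higher and 1 lower (4.51% of all genes were called either way), TG 1 lower (3.81%) and TM 1 lower (2.55%), while OD (0.246%) and GD (0.00746%) called 0. By an unadjusted p of at most 0.05 with 2-fold, limma gave 0 members under OD and GD as well.

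Fzd7, a receptor of stem and progenitor cells, went from 11.76 and 11.15 in untreated WT cells to 13.25 and 12.34 under OGD, which was 1.34 on the log2 scale (SE 0.32, adjusted p = 0.0174). In KO cells it went from 11.67 and 11.64 to 12.43 and 12.85, a difference of 0.98 that did not pass (adjusted p = 0.159). Fzd2 went from 10.72 and 11.37 in untreated WT cells to 9.46 and 8.05 under OGD and fell by 2.29 on the log2 scale (SE 0.42, adjusted p = 0.00412). The KO difference was -0.62 (adjusted p = 0.632). The KO and WT responses to OGD were not shown to differ for either receptor (difference -0.36 for Fzd7, adjusted p = 1.00, and 1.67 for Fzd2, adjusted p = 0.878). In this comparison of responses chip set and group cannot be told apart. The Fzd7 call ended without WT OGD replicate 1 (0.89, adjusted p = 0.116) or untreated WT replicate 2 (1.03, 0.180). The Fzd2 call ended without untreated WT replicate 2 (-1.97, 0.0647) or WT OGD replicate 2 (-1.59, 0.0520). Fzd6 passed the adjusted p under OGD short of 2-fold in both genotypes, with both WT arrays under OGD below background (-0.97 in WT and -0.76 in KO), and Lrp6 did in WT (0.89).

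Lgr6 read 9.06 and 9.47 in untreated WT cells, 7.55 and 7.93 under TG and 8.03 and 8.08 under TM. It fell by 1.52 under TG (SE 0.25, adjusted p = 0.00152) and by 1.21 under TM (adjusted p = 0.0111). The TM call ended without untreated WT replicate 2 (-0.998, adjusted p = 0.145), WT TM replicate 1 (-1.18, 0.112) or WT TM replicate 2 (-1.23, 0.0730). In KO cells Lgr6 went from 8.33 and 8.39 to 7.66 and 7.54 under TG and 7.48 and 7.52 under TM, all 4 below background, differences of -0.76 and -0.87 that did not pass (adjusted p = 0.067 and 0.0578). With the replicate block the count of members called under TG in WT cells rose from 1 to 2 with Fzd2 (-1.22, adjusted p = 0.0427).

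In KO cells Fzd1 was called higher under TG and TM than untreated, and Wnt6 under TM. TG called 1 member higher (5.31% of all genes either way) and TM 2 higher (3.17%), while OD (0.291%), GD (0.00746%) and OGD (1.29%) called 0, also by an unadjusted p of at most 0.05 with 2-fold. Fzd1 rose from 8.63 and 9.07 in untreated KO cells to 10.17 and 10.06 under TG (log2 1.26, SE 0.25, adjusted p = 0.00416) and to 11.28 and 10.76 under TM (2.17, adjusted p = 0.000111). The TG call ended without untreated KO replicate 1 (1.05, adjusted p = 0.0734). In WT cells Fzd1 differed by 0.41 under TG and 0.58 under TM, and neither passed. Wnt6 rose from 9.09 and 9.30 to 10.30 and 10.21 under TM (1.06, SE 0.15, adjusted p = 0.000616), and without untreated KO replicate 1 this was 0.95, short of 2-fold. Under TG its change of 0.85 passed the adjusted p short of 2-fold, and under OGD it was -0.64 (adjusted p = 0.0406). With the replicate block, Wnt10a (1.53, adjusted p = 0.0389) and Dkk3 (-1.63, adjusted p = 0.0346) were called under TG as well, which made 3 members in place of 1.

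The last comparison asked whether KO and WT cells responded differently to a stress. It called Wnt6 under TM, the only call among the 30 members (0.627% of all genes were called either way). Under TG (0.477%), OGD (0.0224%), OD (0%) and GD (0%) limma called 0 members, and by an unadjusted p of at most 0.05 with 2-fold it gave 2 under TG, 1 under OGD and 0 under OD and GD. The KO response of Wnt6 to TM exceeded the WT response by 1.14 (SE 0.21, adjusted p = 0.0228). All 4 WT arrays of Wnt6 in this comparison were below background, so only the KO side was measured. The call ended in 7 of 8 fits that left out an array of these groups (adjusted p 0.0758 to 0.169), and in the exception, without untreated KO replicate 2, the value was 1.25. It also ended with the 3 kept probes of Wnt6 averaged (0.72, adjusted p = 0.250). With the replicate block Fzd1 was called under TM too (1.59, adjusted p = 0.0372, 0.0712 without the block), which made 2 members. For Wnt10a both KO arrays under TG were above and both WT arrays below those of untreated cells, a difference of 2.72 (SE 0.76) that did not pass (adjusted p = 0.206). With the block set within each set of chips it was called (adjusted p = 0.00503).

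Other genes of the pathway were read from 5 lists. Of 11 genes of Wnt secretion and carriers, all 11 were measured, and 1, 1, 0, 0, 2 and 1 were called higher in KO cells in untreated cells and under OD, GD, OGD, TG and TM, with 0 lower (of all genes 2.29%, 2.2%, 2.09%, 3.01%, 3.12% and 3.57% were called higher). Over the 6 conditions these 5 calls, from 2 genes, were 7.58% of the 66 tests of the list, against 2.71% higher and 1.74% lower over all genes. The tests of 1 gene in several conditions are not independent. Porcn, the enzyme that attaches the lipid to Wnt proteins, made 4 of these 5 calls (1.21 in untreated cells, 1.58 under OD, 1.42 under TG and 1.2 under TM, SE 0.32). Wls, which carries Wnt proteins to the cell surface, was the fifth, at 1.02 under TG (adjusted p = 0.017). In WT cells Porcn was higher under OGD than untreated (1.22, adjusted p = 0.0266). Notum, an enzyme that removes the Wnt lipid, was below background under TG in WT cells (at least 1.77-fold lower, adjusted p = 0.032).

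Of 18 other surface regulators 13 were measured, and the calls in KO against WT were 6 higher, from 3 genes, and 0 lower over the 6 conditions (7.69% and 0% of 78 tests, against 2.71% and 1.74% over all genes). Apcdd1, a membrane inhibitor of Wnt signalling, was higher in untreated cells (1.06), under GD (1.03) and under OGD (1.04, SE 0.26). Ryk, a co-receptor that binds Wnt5a, was higher under TG (1.37) and TM (1.36, SE 0.18, adjusted p = 0.000103). Rspo2, an R-spondin, was at least 2.70-fold higher under TM (adjusted p = 0.00161). Of the stress comparisons, Kremen1, a Dkk receptor, was higher under OGD than untreated in KO cells (1.71, SE 0.24, adjusted p = 0.00111). In that comparison chip set and group cannot be told apart. This list had no stress call in WT cells.

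Of 32 beta-catenin transducers 27 were measured, and 0, 0, 2, 2, 1 and 4 were called higher in KO cells in untreated cells and under OD, GD, OGD, TG and TM, with 0 lower. These 9 calls, from 4 genes, were 5.56% of 162 tests (2.71% higher and 1.74% lower over all genes). Tcf7l1, a TCF factor that mostly represses, was higher under GD (1.23), OGD (1.09), TG (1.74) and TM (2.39, SE 0.26, adjusted p = 1.68e-05). Under TG and TM it also fell in WT cells, by 1.26 and 1.06. Pygo1, a nuclear cofactor of beta-catenin, was higher under GD (1.11), OGD (1.03) and TM (1.34), and Bcl9l and Tcf7l2 under TM (1.57 and 1.16). Ctnnb1, which encodes beta-catenin itself, was not called, at 0.25 to 0.71 (SE 0.23). In WT cells Pygo2 was lower under OGD (-1.47) and Bcl9 under TG (-1.14) than untreated.

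Of 18 symbols of beta-catenin target and feedback genes 11 were measured, with 11 calls higher and 2 lower over the 6 conditions in KO against WT. The higher calls came from 4 genes and the lower from 1, and were 16.7% and 3.03% of 66 tests (2.71% and 1.74% over all genes). Nkd2 and Tnfrsf19 were above background in 0 of 12 WT arrays and in 8 and 4 of 12 KO arrays. They were kept through KO arrays alone, so their calls against WT could only be higher. Ccn4, a secreted matricellular protein, read 10.89 and 9.41 in the untreated WT pair, 11.09 and 9.64 with OD, 10.90 and 10.13 with GD, 11.16 and 9.21 with OGD, 12.30 and 12.30 with TG and 12.49 and 12.52 with TM. It read 13.21 and 13.27 in the untreated KO pair, 13.11 and 13.52 with OD, 13.04 and 12.70 with GD, 12.83 and 12.58 with OGD, 13.74 and 13.61 with TG and 13.56 and 13.82 with TM. KO arrays were above WT arrays throughout, and WT arrays were higher under TG and TM than in the other groups. KO exceeded WT by 3.09 in untreated cells (SE 0.55, adjusted p = 0.00272), 2.95 with OD, 2.36 with GD and 2.52 with OGD, and it was not called under TG or TM. In WT cells Ccn4 rose by 2.15 under TG and 2.35 under TM. Nkd2, a feedback inhibitor, was at least 2.45-fold higher in untreated KO cells, with calls under OD and GD too, and in KO cells it fell below background under both TG and TM. Another gene of this list, Tnfrsf19, was called under TM (at least 1.52-fold). OGD lowered Ccnd1 in WT cells (-1.12). Ccnd1, the cyclin that drives entry into S phase and a target of many other pathways, was lower in KO cells under TG (-1.69) and TM (-1.98, SE 0.27, adjusted p = 0.00016). Its KO response to TM differed from that of WT by -2.14 (adjusted p = 0.0201). Axin2 and Lef1, the feedback targets most used as a readout of beta-catenin signalling, were not called in any comparison and were named here after their values were seen, at 0.10 to 0.57 (Axin2, SE 0.21) and -0.20 to 0.36 (Lef1, SE 0.16) in KO against WT. Apcdd1 and Notum stand in 2 of the lists each.

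Of 25 genes of planar polarity and the beta-catenin-independent branch 18 were measured, with 8 calls higher and 2 lower over the 6 conditions. These were 7.41% and 1.85% of 108 tests (2.71% and 1.74% over all genes). Prickle1, a core planar polarity protein, made 6 of the 8 higher calls, and 1 other gene made the rest. It read 7.81 and 8.15 in the untreated WT pair, 7.96 and 7.79 with OD, 7.76 and 8.23 with GD, 7.70 and 8.31 with OGD, 7.91 and 7.90 with TG and 8.14 and 7.98 with TM. It read 10.68 and 10.21 in the untreated KO pair, 10.31 and 10.12 with OD, 10.65 and 10.57 with GD, 10.61 and 10.08 with OGD, 10.74 and 10.51 with TG and 10.37 and 10.56 with TM. Every KO array was above every WT array, and the log2 fold changes were 2.46 at rest, 2.33 in OD, 2.61 in GD, 2.34 in OGD, 2.72 with TG and 2.4 with TM (SE 0.23, highest adjusted p = 8.61e-06). Nfatc4, a calcium-dependent transcription factor, was higher under TG (1.97) and TM (2.08), and Daam1 was lower under OD (-1.07) and GD (-1.40). Against untreated cells, Camk2d was higher under OGD in WT (1.41). In KO cells Prickle2 was higher under TM (1.33) and Scrib lower under TG (-1.03). The median log2 fold change in KO against WT ranged over the 6 conditions from -0.10 to 0.19 for secretion, -0.03 to 0.31 for surface regulators, -0.02 to 0.20 for transducers, 0.16 to 0.38 for target and feedback genes and 0.10 to 0.28 for planar polarity, against -0.01 to 0.02 over all genes.

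**Figure D5:**
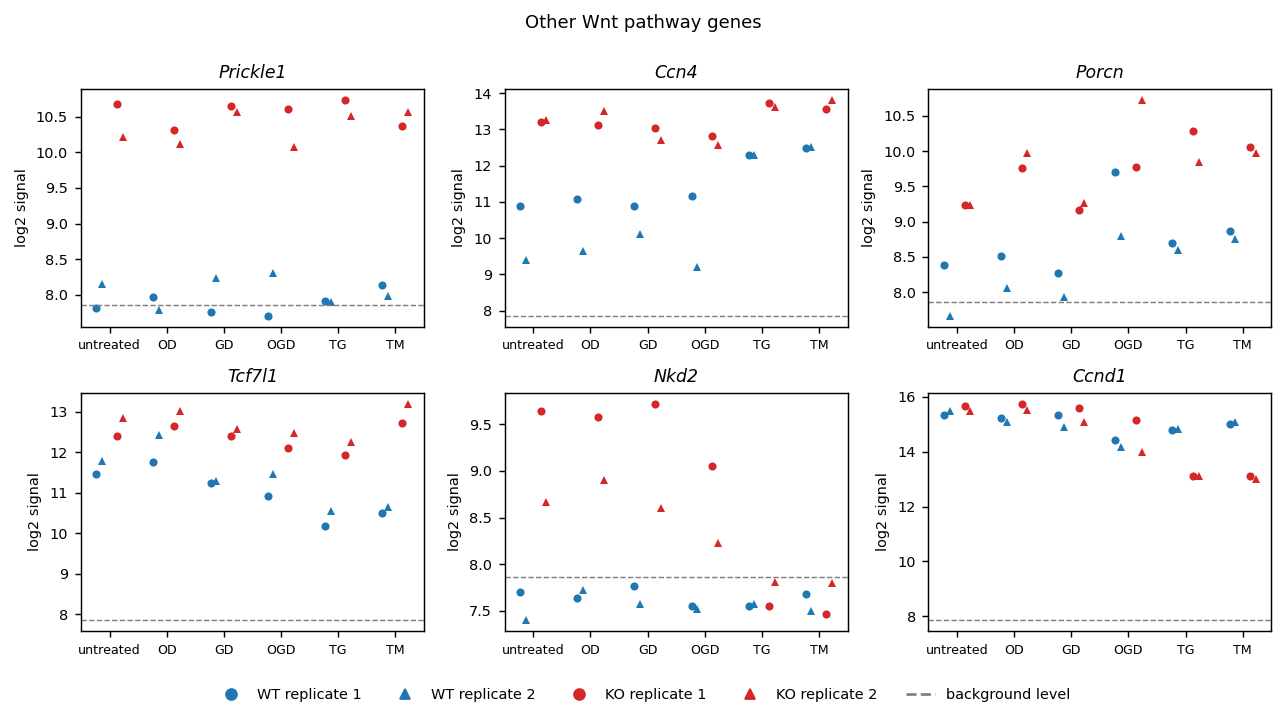
Log2 signal (vertical axis) of 6 other pathway genes in each array by condition (horizontal axis); symbols and colours stand for replicate and genotype as named in the key, and the dashed line is the background level. Prickle1 and Ccn4 are higher in all KO than in all WT arrays, and both KO arrays of Ccnd1 lie below both WT arrays under TG and TM only.

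The calls also depended on how the spread was estimated. With only the arrays of the 2 groups compared in the fit, the members called in KO against WT were 2 in untreated cells (Wnt5a and Wnt6), 0 under OD, 1 under GD and 1 under OGD (both Wnt5a), 8 under TG and 10 under TM, in place of 6, 6, 4, 8, 6 and 6. The fit of all arrays has 12 residual degrees of freedom, and a fit of 4 arrays far fewer. The shares of all genes called in the narrower fits are not reported here.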

How the data were processed

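RNA of 24 MEF samples, 2 for each of 12 groups, was measured on Illumina Mouse-6 arrays. The deposited values were linear intensities that the authors had pre-processed and normalized in GenomeStudio (version not given), and their sorted values were nearly the same on all arrays. A table of values before normalization, with 48 columns whose names match no sample label, was not used. Columns were tied to samples through the labels.

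Signals were put on the log2 scale, and nothing was added to them. The mode of the signal was 181, and the background level of 232 was set so that an unexpressed probe would exceed it with a chance of 0.01. The 26684 of 45281 probes above it on at least 1 array (58.93%) were kept. Gene names came from the platform annotation, in which 34885 probes had 1 symbol, 18 several and 10378 none. The brightest probe by mean log2 signal stood for a gene. Group means were fitted to all 24 arrays with limma 3.58.1 in R 4.3.3 (lmFit and eBayes, 12 residual and 3.431 prior degrees of freedom), and 21 comparisons were drawn: KO against WT in 6 conditions, each stress against untreated cells in each genotype, and the difference between these responses. P-values were adjusted by the Benjamini-Hochberg method over all kept probes, and adjusted p-values in the text are from limma. A called change from or to a group with no array above background was given as a bound against that level. Changes that were not called are fitted values, and those from or to such a group carry that limit.

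Same-numbered arrays deviated together in all 66 pairs of groups (median r 0.3761, range 0.1353 to 0.7638), so the replicate numbers were taken to pair the arrays, and a fit with the number as a block was set beside the main one. Other alternatives were blocks within chip sets, only the groups compared, other filters on dim probes, normexp background correction, cyclic loess, the mean of a gene's probes, an unadjusted p and leaving out each array. A block for each genotype and experiment (TG and TM or all other groups, not given by the labels) was added after the data were seen. The members and the pathway and marker lists were chosen with earlier results of these data known. Genes were named by rule: members called in KO against WT, with all arrays for those called in at least 3 of 6 conditions or among the 4 largest changes of a condition, called members of the stress comparisons, members above background throughout, and up to 4 called genes of a list per kind of comparison. Wnt10a, Wnt7a, Lrp5, Lrp6, Axin2, Lef1 and Ctnnb1 were also described after their values were seen. The scripts were tested on simulated data. Promoter sequences came from RefSeq (GRCm38.p6).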

Additional observations from a re-analysis of the deposited data

Results flagged for a closer look

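Wnt6 was called different between the genotypes in its response to TM. The KO response exceeded the WT response by 1.14 on the log2 scale (SE 0.21, n = 2 arrays in each of 4 groups, limma adjusted p = 0.0228). In KO cells the signal went from 9.09 and 9.30 to 10.30 and 10.21, while the WT arrays read 7.63 and 7.51 untreated and 7.42 and 7.55 under TM, all below background, so only the KO side was measured. The call ended in 7 of 8 fits that left out 1 array of these groups (adjusted p 0.0758 to 0.169), with only the arrays of these groups in the fit (0.0804), with normexp background correction (0.0586) and with the 3 kept probes averaged (0.72, adjusted p = 0.250).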

How the results depend on the processing

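Over the 21 comparisons 44 calls of members were made. None changed direction under any alternative, 27 held with each array left out in turn and 17 did not. A fit of only the groups compared kept 20 of the 44, normexp background correction 42, the mean of a gene's probes 38, cyclic loess 43 and no filter on dim probes 43. The replicate block kept all 44 and changed no other call than those given with the results. Why the counts moved was not tested. Shares of all genes called under the alternatives are not reported here. In KO against WT, members called numbered 6, 6, 4, 8, 6 and 6 (untreated, OD, GD, OGD, TG, TM). The fit of only the groups compared gave 2 untreated, 0 under OD, 1 under GD, 1 under OGD and 10 under TM. Normexp gave 10 untreated and 7 under GD, and under OGD it added Fzd3, Wnt6 and Wnt7a. Smaller moves of a count are not all listed in this section. The block by genotype and experiment gave 10 under TM. With each array left out the counts ranged over 4 to 6, 4 to 6, 3 to 6, 5 to 9, 5 to 6 and 5 to 6.

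For stress in WT cells, the counts under OGD, TG and TM were 2, 1 and 1. Under OGD they were 0 with only the groups compared and 4 with normexp. Under TG they were 2 with the replicate block, 3 with the block within chip sets, 3 with the block by genotype and experiment and 3 by unadjusted p. Under TM they were 2 with the block within chip sets, 2 with that by genotype and experiment, 2 by unadjusted p, 0 with only the groups compared and 0 with the mean of probes. With each array left out they ranged over 0 to 3, 1 to 1 and 0 to 1. In KO cells they were 0, 1 and 2. Under OGD normexp gave 1. Under TG each of the 3 blocks gave 3, unadjusted p 3, only the groups compared 2 and normexp 2. Under TM the block within chip sets, that by genotype and experiment and the fit of only the groups compared each added Wnt10a. Normexp added Lgr6 there. The mean of probes gave 1 under TM. With each array left out they ranged over 0 to 1, 0 to 1 and 1 to 2. OD and GD stayed at 0 with each array left out in both genotypes.

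For the difference between responses, the count under TM was 1. It was 2 with the replicate block, 3 with the block within chip sets, 4 with that by genotype and experiment, 3 by unadjusted p, and 0 with only the groups compared, normexp or the mean of probes. Under TG it was 0, and 1 with the block within chip sets, 1 with that by genotype and experiment and 2 by unadjusted p. Under OGD it was 0, and 1 by unadjusted p. With each array left out it ranged from 0 to 1 under TM and stayed at 0 elsewhere. Signals near background bound changes from below, and 2 arrays a group limit the rest.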
